A study of Mus musculus with 10 samples.

Results

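The Hox gene clusters are described here as 38 genes of the mouse HoxA, HoxB, HoxC and HoxD clusters, with 10, 10, 9 and 9 genes. The members were taken by name from the 23358 rows of the deposited gene table, not by any measured value. MC3T3 cells, a pre-osteoblast line from mouse calvaria, the bone of the skull vault, were cultured under osteogenic conditions with vehicle or with 5 µM GSK126, an inhibitor of the histone methyltransferase EZH2. The compound was given at the start and again on day 3, and it was withdrawn on day 6. Messenger RNA libraries were made on days 3, 6 and 10, a single one for each treatment at each time. Histone H3 trimethylated on lysine 27 (H3K27me3) was immunoprecipitated and sequenced 24 hours after the first dose, with 1 ChIP and 1 input library per treatment. All groups share a single line, so the 6 RNA libraries differ by treatment and culture time only, as far as the labels say.

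Hox genes encode homeodomain transcription factors that give positional identity along the body axis and the limbs. Their order on the chromosome follows the order of their expression domains, so that low-numbered paralogs act anteriorly and high-numbered paralogs posteriorly. The clusters are classical targets of Polycomb repression, in which EZH2 writes H3K27me3 and silences the genes that do not belong to a cell's position. Skull vault bone derives from cranial neural crest and head mesoderm, while cells of the trunk and limb skeleton keep a Hox code into adult life.

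Total counts were 97291878 to 111537936 per library. The ribosomal RNA precursor Rn45s took 4.37% to 7.47% of them, with the highest shares on day 10. All 10 osteoblast markers were above 0.1 RPKM (reads scaled by coding length and by library total), with summed levels of 64460 to 77130 CPM (counts scaled to the library total) in vehicle and 60360 to 90610 with GSK126. With GSK126, 3 of these 10 markers were higher by edgeR's quasi-likelihood test. The endothelial list summed to 0.728 to 2.15 CPM in vehicle and 0.965 to 4.94 with GSK126, and Kdr was at 0. The muscle list summed to 2.93 to 5.18 and 4.56 to 6.11 CPM with Myod1 at 0, the blood list to 8.38 to 19.8 and 12.9 to 20.6 CPM with Hba-a1 at 0, and the adipocyte list to 8.45 to 15.7 and 6.92 to 10.2 CPM. The chondrocyte list reached 88.3 to 246.4 CPM in vehicle and 136.0 to 599.1 with GSK126, with Acan at 0, and the neuronal list 5.86 to 23.2 and 13.2 to 110.5 CPM, where Tubb3 was the abundant gene and 4 of 5 were below 0.1 RPKM. With GSK126, 1 of 2 tested neuronal markers was higher, Tubb3 at 1.76 on the log2 scale (SE 0.21, edgeR adjusted p = 0.0333), and 0 tested markers of the other 5 lists were called. The part of these other markers in the Hox results was not tested. In bulk RNA, fewer cells expressing a gene and less RNA per cell cannot be told apart.

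The first question is which Hox genes the vehicle cells transcribed. The cells held a transcript pattern centred on HoxA and HoxB, with weak HoxC and no HoxD. Summed over the 10 HoxA genes, vehicle held 3806, 3578 and 3896 counts on days 3, 6 and 10, and the 10 HoxB genes held 1532, 1322 and 1188. The 9 HoxC genes summed to 174, 150 and 154 counts, and the 9 HoxD genes to 0 on every day, where a count of 0 allows up to 3 fragments.

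Hoxa10, which acts in limb, uterine and bone development, had the highest RPKM of all members in each of the 6 libraries. Its vehicle level was 5.69 RPKM on average, with a range of 4.92 to 6.97 over the 3 days. Per length, Hoxa5 followed at 2.0 RPKM (range 1.58 to 2.60) and Hoxa6 at 1.9 (range 1.49 to 2.25), and these neighbours in the order overlapped across days. Hoxa3, which patterns pharyngeal and neck structures, averaged 1.06 RPKM. Its annotated span runs over Hoxa4, Hoxa5 and Hoxa6 on the same strand, so reads of these overlapping genes may not be separated.

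A band of HoxB genes lay just below 1 RPKM in vehicle, with overlapping ranges. Hoxb6 averaged 0.886, Hoxb9 0.886, Hoxb8 0.875 and Hoxb3 0.863, beside Hoxa2 at 0.882. Hoxb5 and Hoxa7 were both near 0.50. In HoxC the highest was Hoxc6 at 0.352 RPKM, followed by Hoxc4 at 0.134, Hoxc5 at 0.0649 and Hoxc8 at 0.0347.

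The group 13 paralogs and several other high-numbered genes were silent or nearly so in vehicle, while Hoxa10 and Hoxb9, given above, were not. Of the group 13 paralogs, Hoxa13 and Hoxd13 were at 0 in the 3 vehicle libraries, Hoxb13 had 8, 0 and 2 counts, and Hoxc13 had 8, 10 and 6. Hoxa11, Hoxc10 and Hoxc11 had at most 4 counts in any library, and Hoxc9 at most 14. Low-numbered genes were not uniformly active either, and gaps occurred along each cluster. Hoxb1, Hoxc12, Hoxd1, Hoxd3, Hoxd9 and Hoxd10 were at 0 in all 6 libraries, Hoxb2 had at most 6 counts and Hoxb7 at most 10, and Hoxa4 and Hoxb4 averaged 0.10 and 0.0565 RPKM between more abundant neighbours. In vehicle 5 members reached 1 RPKM on each day, and with GSK126 6, 5 and 2 did on days 3, 6 and 10.

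**Figure D1:**
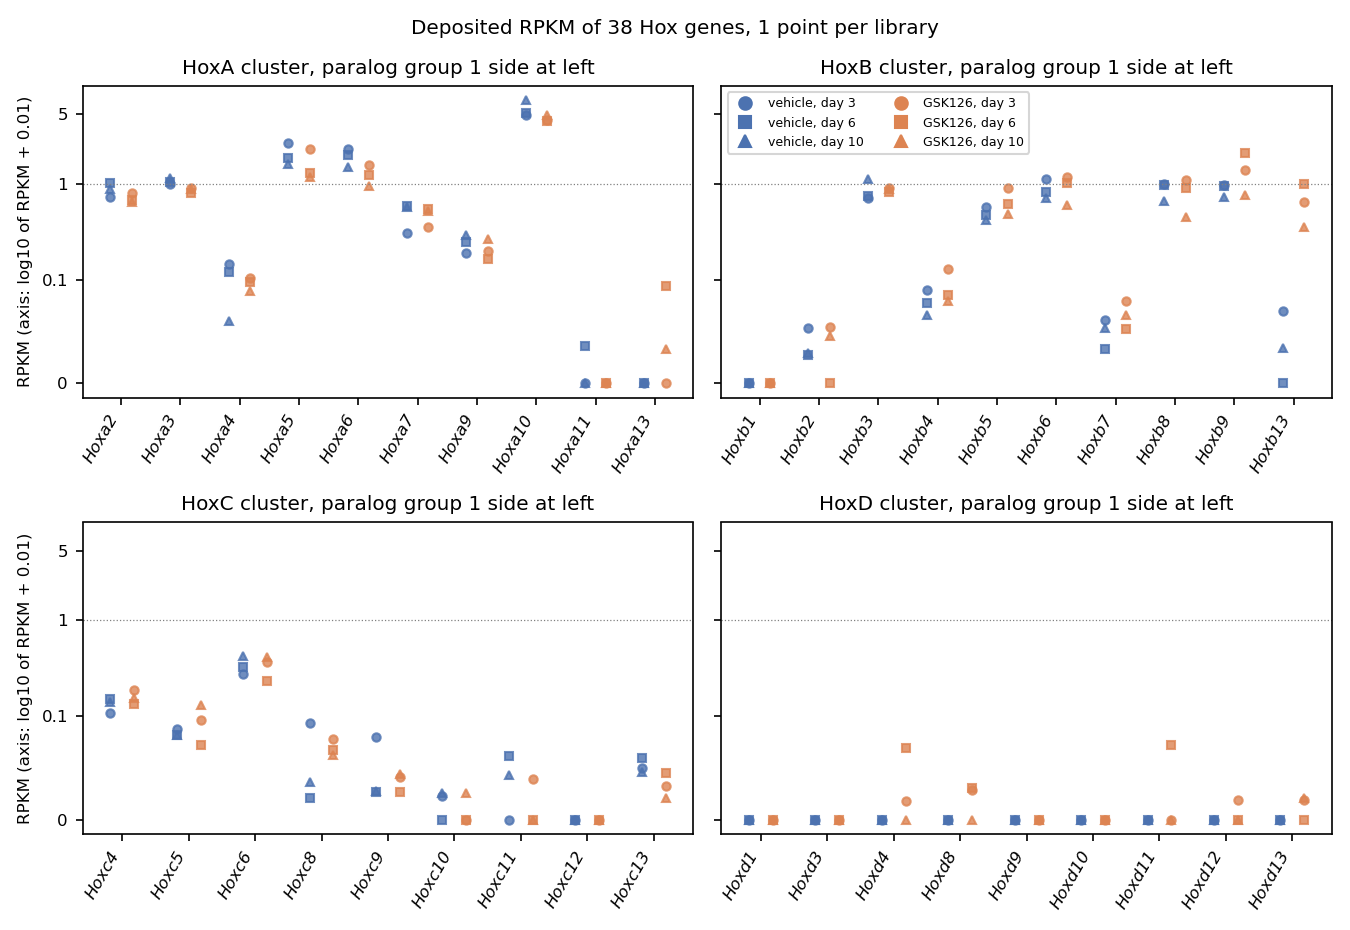
RPKM of each of the 38 members in each of the 6 libraries, by cluster and ordered from low to high paralog group. Each point is 1 library (vehicle blue, GSK126 orange; marker shape gives the day), the vertical axis is the log10 of RPKM plus 0.01, and the dotted line marks 1 RPKM. Hoxa10 lies above all others, HoxD lies at or near 0, and Hoxb13 is separated by treatment.

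The second question is where H3K27me3 lay over the clusters. The deposited lists hold islands, stretches with more ChIP than input reads, called by the authors on 1 ChIP library per treatment. Each island has a fold enrichment, the scaled ratio of ChIP to input reads, which is the authors' value. The vehicle list held 34498 islands that covered 147.9 Mb with a median fold of 2.48, and the GSK126 list held 24947 islands that covered 166.7 Mb with a median fold of 2.04. Because both lists were called separately and neither has a replicate, a lost or gained island has no test, and intervals below cover counting error only.

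Most of the expressed members of HoxA and HoxB lay in long stretches without an island. In HoxA the stretch without an island ran for 110.8 kb in vehicle and 107.0 kb with GSK126 and held the starts of 9 members, Hoxa2 to Hoxa11. In HoxB it ran for 84.6 kb in vehicle and 86.6 kb with GSK126 and held the starts of 7 members, Hoxb8 to Hoxb2. These stretches also held the nearly silent Hoxa11, Hoxb2 and Hoxb7. Hoxb9, at 0.886 RPKM in vehicle, lay outside, with vehicle islands over 84.8% of the gene. HoxC also had such a stretch, of 266.8 kb in vehicle with the starts of Hoxc13 to Hoxc6, 7 members, and of 324.2 kb with GSK126 with the starts of 8, Hoxc5 included. Apart from Hoxc6, the members in the vehicle stretch of HoxC were below 0.1 RPKM on average in vehicle, while Hoxc4 and Hoxc5 had vehicle islands. Absence of an island was therefore not limited to expressed genes, since Hoxc12 was at 0 counts and lay in that stretch.

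Islands covered 2.6% of the HoxA span in vehicle and 8.9% with GSK126, and 37.5% and 35.3% of the HoxB span. They covered 13.9% and 6.0% of HoxC, and 30.6% and 31.7% of HoxD, whose members had 0 counts in vehicle. The ratio of ChIP to input reads, pooled over the islands of HoxD, was 2.86-fold (95% exact interval 2.44 to 3.36) in vehicle and 2.63-fold (2.32 to 3.00) with GSK126, and these intervals overlapped. For HoxB the pooled ratio was 2.97-fold (2.75 to 3.21) against 2.62-fold (2.41 to 2.85), also overlapping. Every island that touched a span was pooled whole, so reads from outside the span are included. Overlap of the intervals does not show that the ratios are equal, and their difference was not tested.

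An island lay within 1 kb of the start of 7 of 38 members in vehicle, namely Hoxa13, Hoxb9, Hoxb13, Hoxc4, Hoxc5, Hoxd4 and Hoxd10. With GSK126 it was 6 of 38, namely Hoxb1, Hoxb9, Hoxb13, Hoxd4, Hoxd10 and Hoxd13. A member named for 1 list only could still have an island of the other list nearby. Hoxb1 had a vehicle island 1.64 kb from its start, over 34.2% of the gene. At Hoxa13 the nearest GSK126 island lay 1.52 kb from the start. Over all 15716 genes with a RefSeq promoter entry the shares were 9.63% in vehicle and 7.83% with GSK126. Among genes at 0 in all libraries the shares were 13.7% and 12.6%, and 1 and 2 of the 6 such members had an island. Among genes with vehicle RPKM above 0 and below 0.1 they were 23.6% and 18.0%, against 2 and 1 of 11 members. None of the 4 members at 1 RPKM or more, Hoxa3, Hoxa5, Hoxa6 and Hoxa10, had one in either list, where 2.02% and 1.42% of such genes did. Of the 11 members at 0.1 to 1 RPKM in vehicle, 2 had a vehicle island (Hoxb9 and Hoxc4) and 1 a GSK126 island (Hoxb9). Of the 6 members at 0 in vehicle with counts in GSK126, 2 had an island in each list. Shares over all genes were not computed for these further levels.

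The widest island of the 4 clusters covered Hoxb13, at chr11:96194361-96196599 on mm10. In vehicle it spanned 49.2 kb, from 96158200 to 96207399, with 942 ChIP and 466 input reads and a fold of 3.40 (95% exact interval 3.04 to 3.80). It ranked 4 by length and 3 by p-value among the 34498 vehicle islands. With GSK126 the island over Hoxb13 spanned 29.2 kb, from 96168600 to 96197799, with 529 ChIP and 283 input reads and a fold of 3.11 (2.69 to 3.61). A separate GSK126 island of 21.6 kb followed it. Between the end of Hoxb13 and the start of Hoxb9, islands covered 74.6% of 74.7 kb in vehicle and 70.1% with GSK126. An island over Hoxb13 was present in both lists, and the counting intervals of its fold overlapped.

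At Hoxb9 the vehicle islands covered 84.8% of the gene and reached over its start, and the GSK126 island covered 60.8% and began 0.27 kb downstream of it. Over Hoxc5 a 5.2 kb vehicle island had a fold of 2.23 (1.51 to 3.30), and the nearest GSK126 island lay 8.19 kb from its start. At Hoxc4 the vehicle fold was 2.71 (1.93 to 3.84), and the nearest GSK126 island lay 2.80 kb away. Hoxd13 went the other way, with an 11.8 kb GSK126 island that reached over its start (fold 2.42, 1.91 to 3.06). The nearest vehicle island, of 3.2 kb, lay within the span of that GSK126 island and ended 7.11 kb from the start.

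**Figure D2:**
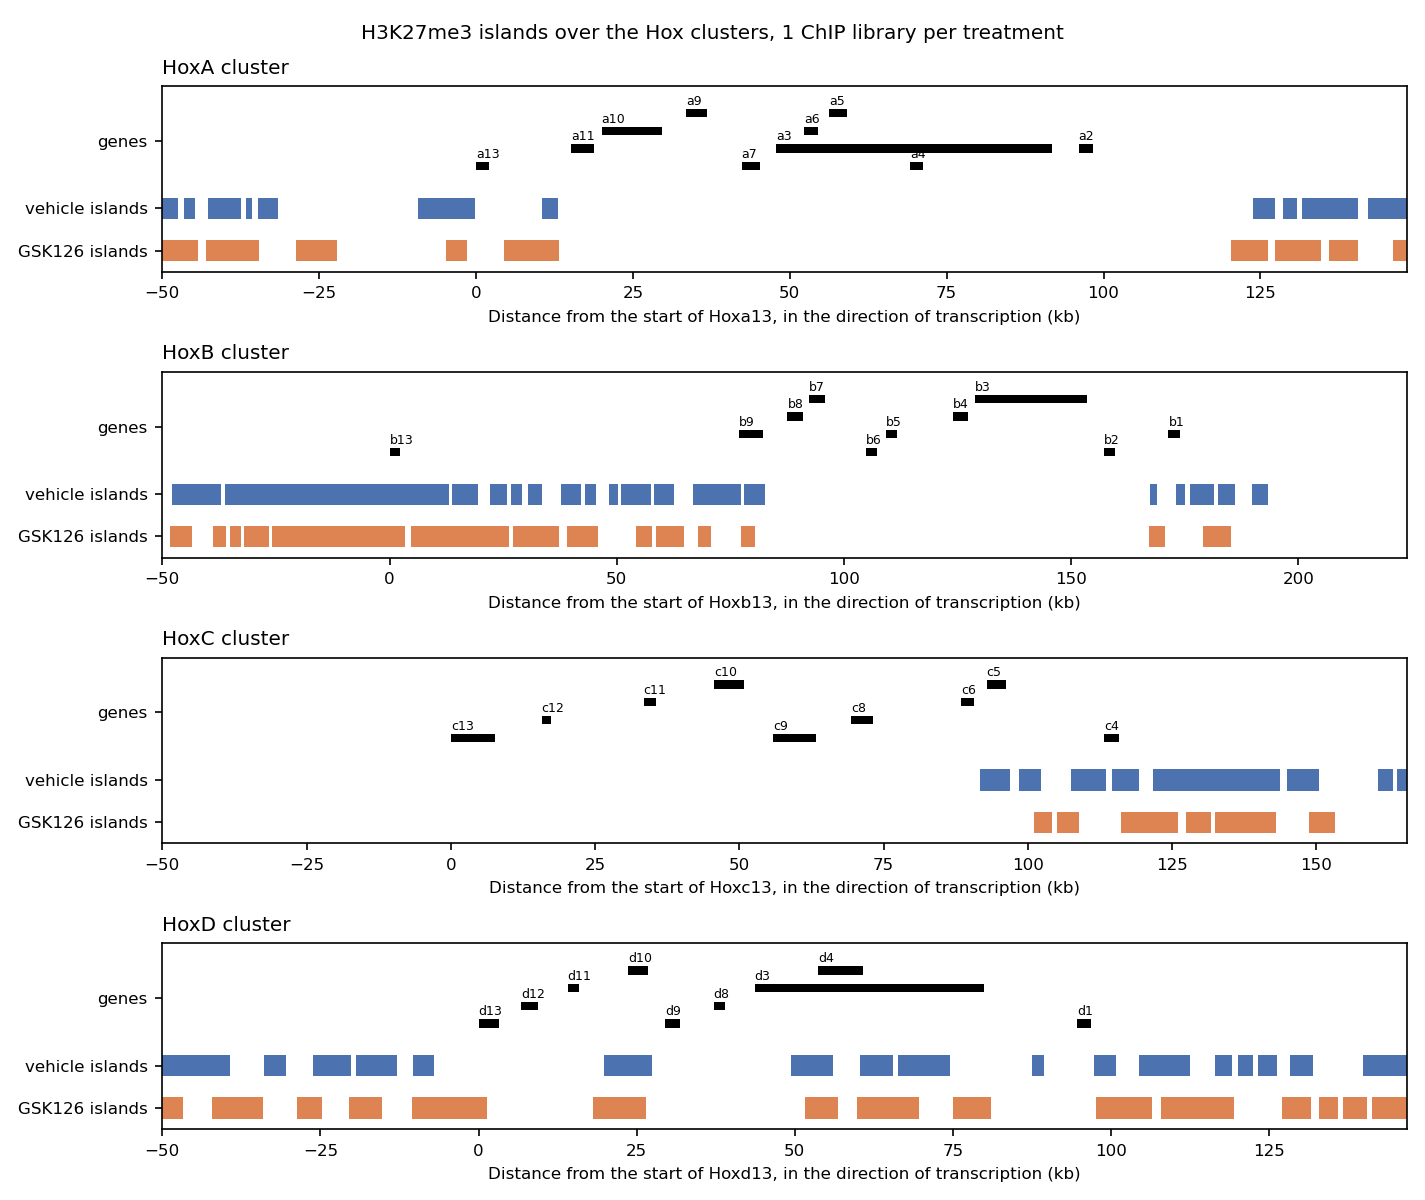
Deposited H3K27me3 islands over the 4 clusters at 24 hours, with 50 kb on either side. The horizontal axis is the distance in kb from the start of the most posterior member along the direction of transcription. Black bars are genes, blue and orange bars the islands of the vehicle and GSK126 lists, which leave a long stretch of HoxA and of HoxB free and cover Hoxb13 in both.

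Promoter sequences from RefSeq (GRCm38.p6, the assembly also named mm10) were found for 22 of 38 members, as windows from 250 bases before to 50 after the start. CG dinucleotides, which are abundant where Polycomb complexes are recruited in mammals, numbered 4 to 45 per window with a median of 14.5 over 24 windows, against a median of 7 over all 32851 windows, of which 94.6% hold at least 1. The motif searched was CG, which reads the same on both strands. Windows of 4 members are printed here. Hoxa10 is the most abundant member without an island (chr6:52240805-52241104, minus strand, 12 CG). Hoxb8 is a HoxB member at the edge of the island-free stretch (chr11:96281655-96281954, plus strand, 13 CG). Hoxd10 is a silent member with an island in both lists (chr2:74691641-74691940, plus strand, 22 CG). Hoxa13 is the member with the most CG (chr6:52260831-52261130, minus strand, 45 CG), and its window was overlapped by a vehicle island only. Each window runs 5′ to 3′ with CG in capitals.
Hoxa10: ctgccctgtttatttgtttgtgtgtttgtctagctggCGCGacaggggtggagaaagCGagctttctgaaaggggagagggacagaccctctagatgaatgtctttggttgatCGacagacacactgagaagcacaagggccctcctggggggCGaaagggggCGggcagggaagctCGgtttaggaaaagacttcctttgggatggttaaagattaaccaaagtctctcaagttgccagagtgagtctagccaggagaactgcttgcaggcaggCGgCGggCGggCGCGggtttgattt
Hoxb8: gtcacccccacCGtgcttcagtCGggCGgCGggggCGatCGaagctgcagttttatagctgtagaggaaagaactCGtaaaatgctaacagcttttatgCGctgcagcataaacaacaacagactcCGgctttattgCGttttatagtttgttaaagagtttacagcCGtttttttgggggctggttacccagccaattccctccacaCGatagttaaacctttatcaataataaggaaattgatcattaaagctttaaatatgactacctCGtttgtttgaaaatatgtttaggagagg
Hoxd10: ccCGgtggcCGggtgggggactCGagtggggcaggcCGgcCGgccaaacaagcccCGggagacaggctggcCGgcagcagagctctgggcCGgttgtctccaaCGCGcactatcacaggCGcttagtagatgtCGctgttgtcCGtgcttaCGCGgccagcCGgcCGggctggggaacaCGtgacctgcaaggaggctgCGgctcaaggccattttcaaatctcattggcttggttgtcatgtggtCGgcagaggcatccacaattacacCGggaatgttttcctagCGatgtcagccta
Hoxa13: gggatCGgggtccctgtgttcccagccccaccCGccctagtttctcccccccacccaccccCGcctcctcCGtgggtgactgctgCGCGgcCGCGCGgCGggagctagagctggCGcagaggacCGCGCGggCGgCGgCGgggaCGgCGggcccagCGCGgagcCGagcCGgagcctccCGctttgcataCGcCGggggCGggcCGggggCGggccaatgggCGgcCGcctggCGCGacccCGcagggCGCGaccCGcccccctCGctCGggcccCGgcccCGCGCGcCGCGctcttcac
Hoxa10 has a second window in the table, chr6:52234890-52235189, which held 21 CG and also had no island; the printed one lies at the start given in the count table. Of the 4 printed windows, those without a vehicle island held 12 and 13 CG and those with one 22 and 45. Over the 24 windows the 4 with a vehicle island held 4 to 45 CG (median 15.5) and the 20 without held 4 to 37 (median 14.5).

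The third question is how the members differed between GSK126 and vehicle. Hoxb13, a posterior gene known from tail, hindgut and prostate development, was nearly silent in vehicle and had reads in each GSK126 library. Of the 19 members that passed the filter on low counts, 0 were called in either direction by edgeR (Benjamini-Hochberg adjusted p below 0.05), while 1.28% of all 14344 genes tested were called, 1.01% higher and 0.272% lower. At an unadjusted p below 0.05 there were 5 of 19 members, namely Hoxa5, Hoxa6, Hoxa10, Hoxb9 and Hoxb13, against 19.6% of all genes. Hoxb13 is among them although only its GSK126 libraries took it past the filter. DESeq2 called 1 member, Hoxb13, beside 9.22% of all genes, and limma-voom 0 beside 1.79%. The median fitted log2 difference of the members was 0.005, beside -0.001 over all genes.

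Hoxb13 had 8, 0 and 2 counts in vehicle on days 3, 6 and 10, and 118, 164 and 58 with GSK126. Every GSK126 library was above every vehicle library. The fitted log2 difference was 5.09 (SE 0.76), just outside the threshold at an edgeR adjusted p of 0.0510, with adjusted p between 1.42e-07 and 0.39 over 10 alternatives, of which 4 passed. Each fragment enters the table as 2 counts, so these are 59, 82 and 29 fragments against 4, 0 and 1. By day, the ratio was 14.9-fold on day 3 (95% exact counting interval 5.54 to 56.7), at least 28.3-fold higher on day 6 against a floor of 3 fragments (lower exact limit 22.5), and 29.8-fold on day 10 from a single vehicle fragment (interval 4.94 to 1216). Hoxb13 passed the filter on low counts only through its GSK126 libraries. With 0.988 RPKM on day 6 it ranked 6 among the members of that library, against 25 in vehicle on that day.

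Further rows, between Hoxb13 and Hoxb9 or on the other flank of Hoxb13, had reads with GSK126. These rows were named after their values were seen, and the share of all genes with such counts was not computed. Gm53, a row between Hoxb13 and Hoxb9 listed here as noncoding, had 0 counts in the 3 vehicle libraries and 4, 32 and 28 with GSK126, which against the floor of 3 fragments is at least 5.53-fold higher on day 6 (lower exact limit 4.0) and at least 4.79-fold on day 10 (lower exact limit 3.40). The precursor row of miR-196a-1 had 0, 0 and 0 against 0, 8 and 4. Both were below the filter and were not tested. Ttll6, a tubulin polyglutamylase gene on the other flank of Hoxb13, had 0, 0 and 4 against 2, 12 and 4 counts, also below the filter. Gm53 and the miR-196a-1 precursor lay in the stretch between Hoxb13 and Hoxb9 where islands were dense, nearer to Hoxb9. Whether the reads and the mark are related was not tested.

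Hoxb9, the next gene of the cluster, patterns ribs and forelimb position. It had 370, 334 and 242 counts in vehicle against 512, 694 and 254 under GSK126, so that the groups overlapped. Its fitted log2 difference was 0.57 (SE 0.22, edgeR adjusted p = 0.242, not called). The difference was uneven over days: 1.40-fold on day 3 (interval 1.16 to 1.70), 2.15-fold on day 6 (1.78 to 2.61) and 1.08-fold on day 10 (0.833 to 1.39).

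Among 7 tested HoxB members, 4 had higher normalised counts with GSK126 on all 3 days (Hoxb4, Hoxb5, Hoxb9 and Hoxb13) and 0 were lower on all 3, while 22.1% of all genes were higher and 22.7% lower on all 3 days. Hoxb13 was in the tested set only through its GSK126 libraries, so the filter favoured its direction and it adds nothing to this comparison. Hoxb5, an anterior trunk gene, had 156, 120 and 98 counts in vehicle against 236, 148 and 116 under GSK126, a fitted difference of 0.42 (SE 0.20, edgeR adjusted p = 0.321). Hoxb4, which acts in neck vertebrae and blood stem cells, had only 28, 18 and 12 against 46, 22 and 18. Neither pair of groups was separate. Hoxb3, Hoxb6 and Hoxb8 differed in sign between days: Hoxb3 had 380, 368 and 500 counts against 462, 384 and 408, Hoxb6 208, 144 and 114 against 216, 170 and 98, and Hoxb8 370, 334 and 214 against 396, 300 and 150.

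In HoxA, of 8 tested members 0 were higher and 4 lower on all 3 days, namely Hoxa3, Hoxa5, Hoxa6 and Hoxa10. These signs were the same under TMM, library size and RLE scaling, and none of the 4 was called. The abundant Hoxa10 had 2180, 2128 and 2652 counts in vehicle against 1936, 1690 and 1902 under GSK126. Its fitted log2 difference was -0.29 (SE 0.09, edgeR adjusted p = 0.175), and by day the ratio was 0.900 on day 3 (interval 0.824 to 0.982), 0.823 on day 6 (0.751 to 0.901) and 0.736 on day 10 (0.677 to 0.801). The intervals of the ratio lay below 1 on each day, although the normalised levels of the groups overlapped across days.

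Hoxa6, a thoracic patterning gene, had 222, 178 and 126 counts in vehicle against 150, 108 and 82 under GSK126, a difference of -0.60 (SE 0.19, edgeR adjusted p = 0.177). Hoxa5, needed for lung and neck-to-thorax patterning, had 688, 446 and 360 against 582, 308 and 270, a difference of -0.36 (SE 0.14, edgeR adjusted p = 0.237). Counts of both were lower on each later day in both treatments, and the ranges of the groups overlapped. Hoxa3 had 360, 348 and 350 counts against 316, 262 and 278, a difference of -0.27 (SE 0.15, edgeR adjusted p = 0.376), and was the 1 member for which every GSK126 library lay below every vehicle library. Across all genes the groups were separate in this way for 5.94% below and 6.27% above, and among the 19 members for 1 below (Hoxa3) and 1 above (Hoxb13). Since Hoxb13 passed the filter only through its GSK126 libraries, its place above adds nothing to this comparison.

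The other tested HoxA members changed sign between days. Hoxa2, which patterns the second branchial arch, had 176, 222 and 182 counts in vehicle against 188, 144 and 136 under GSK126. Hoxa7 had 86, 152 and 138 against 98, 138 and 126, and Hoxa9, a blood and posterior trunk gene, 62, 76 and 82 against 64, 48 and 76. Hoxa4 had 32, 24 and 6 against 22, 18 and 14.

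In HoxC all 4 tested members were mixed. Hoxc6 had 64, 70 and 84 counts in vehicle against 82, 48 and 82 under GSK126, and Hoxc4 had 30, 40 and 34 against 52, 34 and 38. Hoxc5, whose vehicle island was not in the GSK126 list, had 28, 22 and 20 against 34, 16 and 44, and Hoxc8 28, 2 and 4 against 18, 12 and 10. Their fitted differences ran from -0.03 for Hoxc6 to 0.65 for Hoxc8, with edgeR adjusted p of 0.675 to 0.969.

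The HoxD genes and Hoxa13, at 0 in vehicle, had few or no reads with GSK126, and these were not limited to posterior genes. Summed HoxD counts were 0, 0 and 0 in vehicle against 8, 22 and 2 under GSK126. On day 6 Hoxd4 and Hoxa13 had 14 counts each with GSK126 against 0, which is at least 2.42-fold higher against the floor of 3 fragments (lower exact limit 1.49), and Hoxd11 had 6. Hoxd8, Hoxd12 and Hoxd13 did not exceed 2 counts in any library. Hoxd10, with an island in both lists, stayed at 0 in all 6 libraries.

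Within single days, members at least 2-fold higher with GSK126 numbered 1 of 19 on day 3, 3 on day 6 and 4 on day 10, where 4.12%, 6.06% and 4.54% of all genes were. These were Hoxb13 on each day, Hoxb9 and Hoxc8 on day 6, and Hoxa4, Hoxc5 and Hoxc8 on day 10, and the last 3 had 20 counts or fewer in vehicle. Hoxb13 is counted here although it passed the filter only through its GSK126 libraries. Hoxa4 and Hoxc8 would not have passed the filter on their vehicle libraries alone. With 10 or more counts required in both libraries the numbers were 0, 1 and 1, among fewer members. The share of all genes under that rule was not computed. Members at least 2-fold lower numbered 0 on each day, where 0.683%, 3.17% and 4.13% of all genes were.

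**Figure D3:**
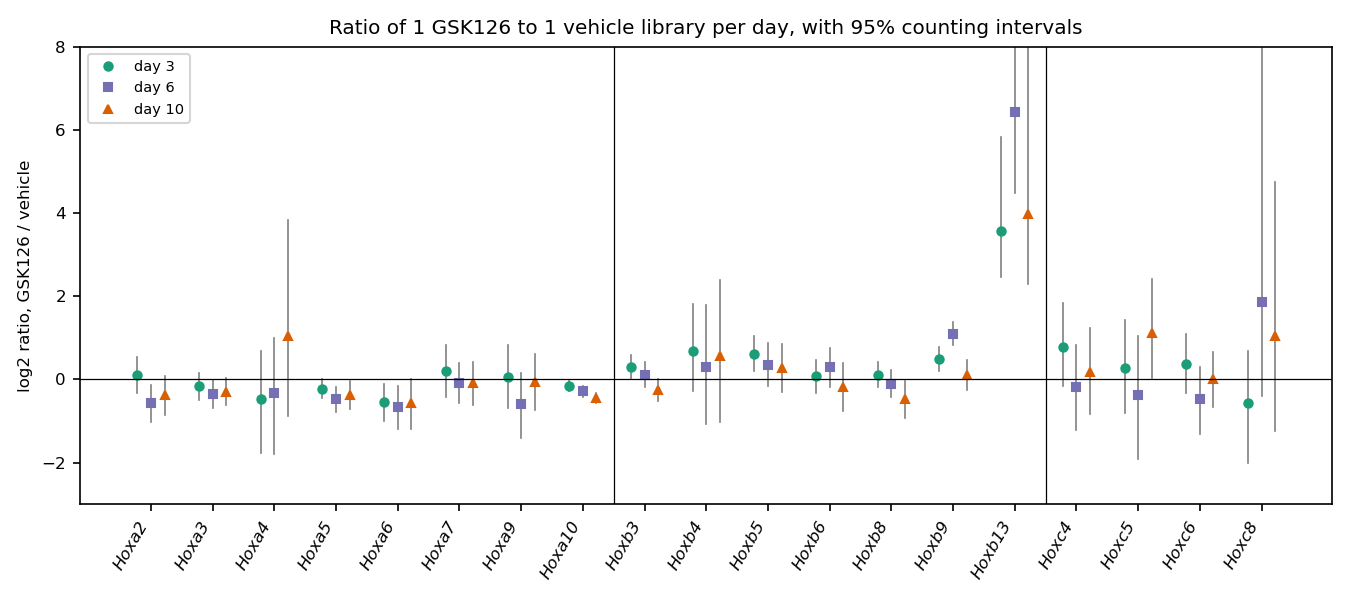
Log2 ratio of the GSK126 to the vehicle library on each day for the 19 members that passed the filter, from TMM-scaled CPM with a prior count of 2. Points are single pairs of libraries and bars are 95% exact counting intervals, which run off the axis for Hoxb13 and Hoxc8. Hoxb13 stands apart on all 3 days, Hoxa10 has narrow intervals below 0, and most others straddle 0.

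The fourth question is whether the difference changed after GSK126 was withdrawn on day 6. The design has no culture that stayed on GSK126 until day 10, so withdrawal and culture time cannot be told apart. The term for day 10 against days 3 and 6 called 0 members and 0 genes by edgeR (0.0% higher, 0.0% lower and 0.0% in either direction), with 0 of 19 members and 7.01% of all genes at an unadjusted p below 0.05. DESeq2 called 22 genes (0.153%), none of them a member, and limma-voom 0. For Hoxb13 the term was -0.33 with an SE of 2.54, which leaves its change on day 10 unresolved, and for Hoxb9 it was -0.69 (SE 0.38, edgeR adjusted p = 0.746). Hoxb13 still had 58 counts with GSK126 on day 10 against 2 in vehicle.

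The fifth question is how the members moved with culture time, averaged over treatments. Between days 3 and 10, 2 of 19 members fell and 0 rose by edgeR, namely Hoxa5 and Hoxb8, where 12.5% of all genes fell, 14.1% rose and 26.6% changed in either direction. The median difference of the members was -0.53 on the log2 scale, beside -0.01 over all genes, with 9 positive and 10 negative. Hoxa5, with the counts given above, fell by 0.76 on the log2 scale (SE 0.17, edgeR adjusted p = 0.0289), and its 2 day 10 libraries, at 3.72 and 2.86 CPM, were below both day 3 libraries, at 5.96 and 5.11. Hoxb8 fell by 0.83 (SE 0.22, edgeR adjusted p = 0.0464), from 3.20 and 3.48 CPM in vehicle and GSK126 to 2.21 and 1.59. Without day 6 its adjusted p was 0.0782 and 1 member was called.

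Hoxa10 and Hoxa7 had the opposite sign. Hoxa10 was higher on day 10 by 0.39 (SE 0.11, edgeR adjusted p = 0.0538), which passed with limma-voom and DESeq2 only, where 27.8% and 31.3% of all genes were called. It stood at 18.9 CPM in the vehicle and 17.0 in the GSK126 library of day 3, and at 27.4 and 20.2 on day 10. Its share of the summed RPKM of the members was 28.3% on day 3 and 40.0% on day 10 in vehicle, and 25.2% and 35.3% with GSK126. Hoxa7 differed by 0.78 (SE 0.26, edgeR adjusted p = 0.0737) and Hoxb6 by -0.73 (SE 0.25, edgeR adjusted p = 0.0781), neither of them called. Osteoblast markers moved over the same days, with 7 of 10 higher on day 10, and the share of Rn45s was higher, as given above.

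Between days 3 and 6, 0 members were called, beside 0.753% of all genes (0.516% higher and 0.237% lower). At an unadjusted p below 0.05 there were 2 of 19 members, Hoxa5 at -0.58 and Hoxa7 at 0.84, against 26.2% of all genes, and DESeq2 and limma-voom called 0 members, beside 12.1% and 0.795% of all genes.

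**Figure D4:**
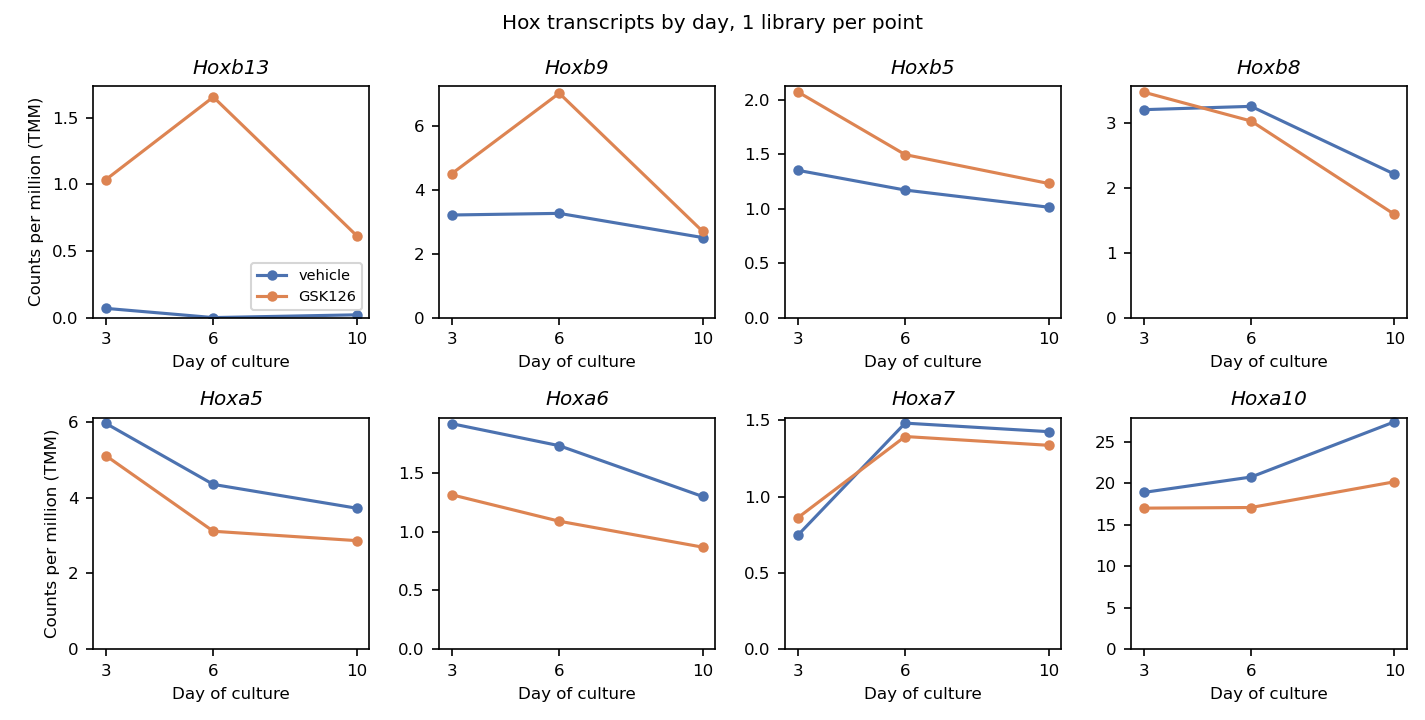
TMM-scaled CPM of 8 members by day, with 1 library per point and lines joining the 3 days of a treatment (vehicle blue, GSK126 orange). Each panel has its own axis from 0. Hoxb13 and Hoxb9 peak on day 6 with GSK126, Hoxa5 and Hoxb8 are lower on day 10 than on day 3 in both treatments, and Hoxa10 is higher.

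Noncoding RNAs of the clusters were followed from a list of 24 names, of which 12 were in the table and 2 passed the filter. With GSK126 0 of 2 were called. Hotair, a long noncoding RNA transcribed against the HoxC genes, had 40, 68 and 110 counts in vehicle against 30, 26 and 38 under GSK126. The groups overlapped once scaled, with a difference of -1.09 (SE 0.34, edgeR adjusted p = 0.170), and the ratio was 0.760 on day 3 (interval 0.362 to 1.56), 0.396 on day 6 (0.192 to 0.770) and 0.355 on day 10 (0.199 to 0.607). The row 2700086A05Rik overlaps the span of Hoxa3 and covers Hoxa5 and Hoxa6 whole, and the library kit does not mark strand. Its reads may therefore not be separated from those of these genes. This row had 90, 48 and 38 counts against 36, 34 and 16, a difference of -0.98 (SE 0.33, edgeR adjusted p = 0.199).

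The clusters also carry the miR-10 and miR-196 families, which are shown because members of different clusters share a seed (bases 2 to 8, in capitals), the miR-10 seed in HoxB and HoxD and the miR-196 seed in HoxA, HoxB and HoxC. The sequences are mature forms from RefSeq (GRCm38.p6), 5′ to 3′, at chr11:96317186-96317208 (miR-10a), chr2:74726074-74726096 (miR-10b), chr11:96265187-96265208 (miR-196a-1) and chr6:52230129-52230150 (miR-196b, minus strand, the others plus).
miR-10a-5p: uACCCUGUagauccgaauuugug
miR-10b-5p: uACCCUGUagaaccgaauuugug
miR-196a-5p: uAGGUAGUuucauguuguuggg
miR-196b-5p: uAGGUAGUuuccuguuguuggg
The seed is ACCCUGU in both miR-10 forms and AGGUAGU in both miR-196 forms. The mature miR-196a-1 sequence lay inside a vehicle island, while the GSK126 island there ended at 96265199 and overlapped only its 5′ part, and those of miR-10a, miR-10b and miR-196b lay in an island of neither list. An mRNA library does not measure mature microRNAs, and the precursor rows had at most 8 counts in any library.

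The genes that act with or on Hox proteins gave 0 calls with GSK126. That holds for 9 tested cofactors of the PBX, MEIS and PKNOX families, 8 activating regulators, 20 Polycomb genes and 17 flanking genes, with median log2 differences of -0.06, -0.06, -0.0013 and 0.07. Ezh2, the target of the compound, differed by 0.12 (SE 0.16, edgeR adjusted p = 0.738), and the transcript level does not report the enzyme's activity. Among 19 tested homeobox genes outside the clusters 1 was higher, Dlx3, an osteoblast differentiation gene, at 1.19 (SE 0.10, edgeR adjusted p = 0.0197). It had 224, 748 and 896 counts in vehicle against 486, 1724 and 1986 under GSK126.

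For the same lists over culture time, where 26.6% of all genes were called against 1.28% for GSK126, more genes were called as well. From day 3 to day 10, 1 activating regulator rose (Cyp26b1, which degrades retinoic acid, by 0.92) and 3 fell (Rara and Rarg, retinoic acid receptors, and Kdm6b, an H3K27 demethylase). Among Polycomb genes 1 rose (Cbx7, by 0.63) and 3 fell, with Suz12 at -0.51, Phc1 at -0.53 and Phf19 at -1.19. Of the cofactors Pknox1 fell, by 0.52 on the log2 scale. Of the flanking genes Skap2 and Hibadh beside HoxA rose and Lnp and Atf2 on the HoxD side fell, and of the other homeobox genes 2 rose and 5 fell. All these calls are edgeR adjusted p below 0.05, from 0.00360 for Dlx3 to 0.0481 for Skap2.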

How the data were processed

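RNA was measured in 6 libraries and H3K27me3 ChIP and input DNA in 4. The members and the gene lists were chosen with earlier results of these data known. Genes were named by a fixed rule: all members, list genes that passed a test, and otherwise at most 3 per list. 1700109F18Rik, Mira, Ezh2, Ttll6, Gm53 and the microRNA rows were named after their values were seen. A row outside the clusters was taken off the list of cluster noncoding RNAs after its values were seen.

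Per the labels' protocols, RNA libraries came from the TruSeq v2 mRNA kit, which does not mark strand. The submitters' processing notes name TopHat2 2.0.6, HTSeq 0.5.3p9, BWA 0.5.9, SICER 1.1 and mm10; the annotation release and island settings are stated in none of the sources used here. The deposited counts are whole numbers per gene without normalization, and all are even, so 1 fragment was taken as 2 counts. The deposited RPKM values, per the file headers, scale the authors' counts by coding length and library. The deposited island lists give the ChIP and the input read number, a p-value, a fold (a scaled ratio of ChIP to input) and an adjusted p-value, as the authors' caller wrote them, on 1 ChIP library per treatment.

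Differences were tested across all 14344 genes that passed filterByExpr using edgeR 4.0.16 (R 4.3.3; quasi-likelihood test, TMM, Benjamini-Hochberg, threshold 0.05), with day and treatment as additive terms and 2 residual degrees of freedom. A further term for GSK126 on day 10 left 1. A single day has 1 library of each treatment and so has no test. The labels do not say whether libraries came from separate cultures, and the p-values reflect only how these libraries vary, which may be technical. On simulated counts for the 14344 genes the GSK126 term recovered 77.5% of 200 genes changed 2-fold and 98.0% of those changed 4-fold. These counts had no day effect and the same change on every day, in genes drawn at any abundance. The recovery for weak Hox genes, or for changes that vary between days, is therefore not known from them. The SE was taken from the fitted difference and its F statistic. Ratios within a day carry exact binomial intervals on fragments. Islands were assigned to a member by 1 base of overlap with the window of 1 kb on either side of its start. Alternatives were library size, RLE, other filters, counts divided by 2, DESeq2 1.42.0, limma-voom (limma 3.58.1), days left out, terms dropped, and other windows and thresholds. Intervals and floors cover counting error only.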

Additional observations from a re-analysis of the deposited data

How the results depend on the processing

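The fitted GSK126 differences of Hoxa3, Hoxa5, Hoxa6, Hoxa10, Hoxb5, Hoxb9, Hoxb13, Hotair and 2700086A05Rik kept their sign under every alternative run for them, as did those of Hoxa5, Hoxa7, Hoxa10, Hoxb6 and Hoxb8 for day 10 and of Hoxa5 and Hoxa7 for day 6. Hoxb13 was not called at an edgeR adjusted p of 0.0510. As the 1 member higher with GSK126, it was called in edgeR under library size (0.0446), with no filter other than 1 count (0.0424) and with counts divided by 2 (0.0396). DESeq2 also called it (adjusted p = 1.42e-07). All genes called in these settings numbered 232 of 14344, 258 of 18465, 165 of 13497 and, in DESeq2, 1323 of 14344. Where the filter on low counts applied, Hoxb13 passed it only through its GSK126 libraries, so those calls add no support. Leaving out a day gave an edgeR adjusted p of 0.0546 to 0.181. The Hoxb13 row is not tested when 10 counts are required in every library. Genes called for GSK126 among all tested numbered 184, against 1323 in DESeq2, 104 with 10 counts in every library, 0 without the day term and 4 (without day 10), 19 (without day 6) or 308 (without day 3) when a day was left out. For day 10 against day 3, members called lower numbered 1 without day 6 and 0 without the treatment term, members called higher 1 in DESeq2 and in limma-voom, and genes called 1486 without the treatment term in place of 3819. Under library size the median of all genes shifted to -0.107 and the higher share of calls was 35.9% in place of 53.1% for day 10, and 50.7% in place of 68.5% for day 6. For day 6 the genes called were 1742 in DESeq2, 53 with 10 counts in every library and 1 without the treatment term, against 108; the day 10 term called 22 in DESeq2. Promoters with an island numbered 0 in both lists at a fold of at least 4, and 3 with GSK126 at an adjusted p of at most 1e-10. At 0.5 RPKM the members reached numbered 10, 10 and 10 in vehicle and 11, 12 and 9 with GSK126, and at 1 CPM 10, 11 and 11 and 11, 12 and 10. With 10 counts in both libraries the members at least 2-fold higher were 0, 1 and 1, among fewer members and without a share over all genes. The cause of these shifts was not tested. The day term already pairs the libraries of a day, with 1 library per treatment and day and no further replicate number to block on. In the main fit 19 of 38 members did not pass the filter on low counts and were not tested, and 6 members were at 0 in all libraries. Whether greater depth would change this was not tested.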

Other observations

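A pair of further rows of the table lay inside or beside the clusters. Mira, a row between Hoxa6 and Hoxa7, had 78, 108 and 132 counts in vehicle on days 3, 6 and 10 against 62, 74 and 78 under GSK126, lower on each day (difference -0.51, SE 0.23, edgeR adjusted p = 0.307). In the HoxD cluster, whose members were at 0 in vehicle, the row 1700109F18Rik had 12, 36 and 66 counts in vehicle. Under GSK126 it had 38, 88 and 66 (difference 0.95, SE 0.41, edgeR adjusted p = 0.287). This row overlaps the start of Hoxd3, and the library kit does not mark strand. Its reads may therefore not be separated from those of Hoxd3. Mira and 1700109F18Rik were chosen after their values were seen.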
